A study of Mus musculus with 12 samples.

Results

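The BCL2 family sets the threshold for mitochondrial cell death. The 10 genes described here are its main members in T cells: the survival genes Bcl2, Bcl2l1 and Mcl1, the pore formers Bax and Bak1, and the BH3-only genes Bcl2l11, Bbc3, Pmaip1, Bid and Bmf. The choice is by name and uses no measured value of the gene, though it was made with earlier results of these data known. It takes 10 of 21887 annotated protein-coding genes. For each, all peaks and all tested regions that overlap the gene span or the 5 kb to each side were taken, which gave 85 of the 40909 tested regions. A region that reaches past this window was counted whole.

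The measurement was ChIP-seq of H3K9/14ac, histone H3 carrying acetyl groups on lysine 9 or 14, which marks promoters and enhancers in use. In the RELACS variant used, chromatin of each sample is barcoded within intact nuclei and samples are then pooled for 1 immunoprecipitation. The cells were T helper 17 (Th17) cells grown for 3 days from naive T cells of C57BL/6 mice and given PMA and ionomycin for a final 3 h, with the secretion blockers Bref A and Monensin. Wild-type (WT) cells were compared with Slc2a3-fl/fl Cd4-cre cells (KO), in which the glucose transporter GLUT3 is deleted in cells that have expressed Cd4-cre, so that the deletion precedes the culture. Each genotype had 3 ChIP libraries, and the 6 input libraries were left aside. Whether libraries of 1 genotype came from separate mice is not in the labels, so every p-value and FDR below measures the spread between these libraries, which may be technical.

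Survival proteins bind and hold the pore formers and the BH3-only proteins. BH3-only proteins are induced or activated by stress, cytokine withdrawal or DNA damage, and they release or activate BAX and BAK, which open the outer mitochondrial membrane. BIM, the product of Bcl2l11, is the BH3-only protein best known for ending T cell responses, and MCL1 and BCL2 are the survival proteins that T cells depend on.

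Sequences of 250 bases upstream of listed starts were taken from RefSeq (GRCm38.p6), for 9 of the 10 members. Shown are both Bcl2l11 promoters, since Bcl2l11 lies under the highest fold changes of the members, and the Bax promoter, which lies under the lowest at a start. Capitals mark matches, on either strand, to 7 short motifs: GTAAACA (FOXO), CACGTG (E-box), TGACGTCA (CRE), TGACTCA (AP-1), GGGCGG (GC box), CCGGAAGT (ETS) and CCAAT.
Bcl2l11 first start, chr2:128125788-128126037, plus strand: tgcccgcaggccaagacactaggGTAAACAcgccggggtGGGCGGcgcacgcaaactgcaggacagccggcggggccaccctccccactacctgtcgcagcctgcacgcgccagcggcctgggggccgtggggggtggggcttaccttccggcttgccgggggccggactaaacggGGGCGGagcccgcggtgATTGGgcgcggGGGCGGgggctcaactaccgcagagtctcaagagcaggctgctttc
Bcl2l11 second start, chr2:128127325-128127574, plus strand: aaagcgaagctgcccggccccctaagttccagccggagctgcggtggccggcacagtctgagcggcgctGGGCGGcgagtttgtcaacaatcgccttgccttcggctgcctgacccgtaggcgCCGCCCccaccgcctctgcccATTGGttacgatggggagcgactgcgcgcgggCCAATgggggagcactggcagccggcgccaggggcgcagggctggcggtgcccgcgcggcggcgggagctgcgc
Bax, chr7:45466899-45467148, minus strand: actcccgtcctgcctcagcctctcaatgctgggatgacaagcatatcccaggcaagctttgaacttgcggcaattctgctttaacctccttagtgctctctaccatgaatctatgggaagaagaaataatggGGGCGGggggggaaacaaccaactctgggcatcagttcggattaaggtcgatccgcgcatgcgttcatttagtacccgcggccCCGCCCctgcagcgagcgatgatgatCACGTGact
The first Bcl2l11 sequence holds 1 FOXO match, 3 GC boxes and 1 CCAAT match, the second holds 2 GC boxes and 2 CCAAT matches, and the Bax sequence holds 1 E-box and 2 GC boxes. Of 32851 mouse promoters of the same length, 3.17% hold the FOXO letters, 6.02% the E-box, 32.7% a GC box and 33.8% CCAAT. The CRE, AP-1 and ETS letters, found in 1.55%, 4.46% and 2.88% of all promoters, are not in these windows. The Bcl2l11 sequences are 72.0% and 73.2% GC with 24 and 30 CpGs, and the Bax sequence is 54.0% GC with 14, against medians of 52.4% and 6 over all promoters. A motif match describes letters and shows no binding.

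The libraries differed in depth, and the values below were read with that in view. Mean coverage, recovered from the peak lists, was 2.97 to 3.99 fragments in WT and 1.85 to 2.29 in KO (exact permutation test, two-sided p = 0.1, the smallest that 3 against 3 libraries can give). Peaks covered 65.22 to 70.52 Mb of the genome in WT and 53.68 to 58.39 Mb in KO, a ratio of means of 0.827 (exact p = 0.1). Only KO replicate 3 showed peaks over the chromosome Y genes Kdm5d, Eif2s3y, Uty and Ddx3y. This library thus held male cells that the other libraries did not show, and the spread among KO libraries is not technical alone. Over Slc2a3, the gene with the floxed allele, peaks covered 12443 to 12507 bp in WT and 3822 to 6128 bp in KO. Of 9 T cell and Th17 genes, among them Cd4, Cd3e, Il17a, Il17f and Il23r, 8 or 9 had a peak in each library. Their summed covered length was 125766 to 132527 bp in WT and 77894 to 89197 bp in KO. Of markers of other cells, Ms4a1, Pax5, Cd8a, Ncr1, Lyz2, Gata1 and Hbb-bt had no peak in any library. The B cell list had peaks over 1 or 2 of 5 genes per library (8264 to 9610 bp in WT, 5840 to 7412 bp in KO) and the CD8 T and NK cell list over 3 or 4 of 6 (8610 to 12025 bp and 8764 to 11037 bp). The myeloid list had peaks over 4 of 5 (13728 to 15022 bp and 8009 to 9917 bp) and the erythroid list over 2 of 4 (3984 to 4805 bp and 1649 to 3435 bp). The part of depth and of these lists in the results below was not tested.

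Bcl2l11 stood against the other members, with acetylation that was higher in KO in the regions over and before its starts and lower at 1 site inside the gene. In the authors' deposited table, which gives a log2 fold change for the best 150 bp window of each region and an FDR over all regions, 16 of the 85 member regions were lower in KO and 6 were higher at an FDR under 0.05. Over all regions of the authors' deposited table, 46.3% were called lower and 12.7% higher, beside 18.8% and 7.06% of the member regions. Bcl2 supplies 36 of the 85 member regions, and without it 28.6% of 49 regions were lower and 10.2% higher per the authors' deposited table, the latter close to the background. Of the 6 higher member regions, 4 belonged to Bcl2l11, 1 to Bcl2 and 1 to Pmaip1. The median log2 fold change of the member regions was -0.36, against -0.62 over all regions, per the authors' deposited table. A log2 value there carries the authors' library scaling, and on a scaling by mean coverage each value would be 0.30 higher, with medians of -0.06 and -0.33.

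**Figure D1:**
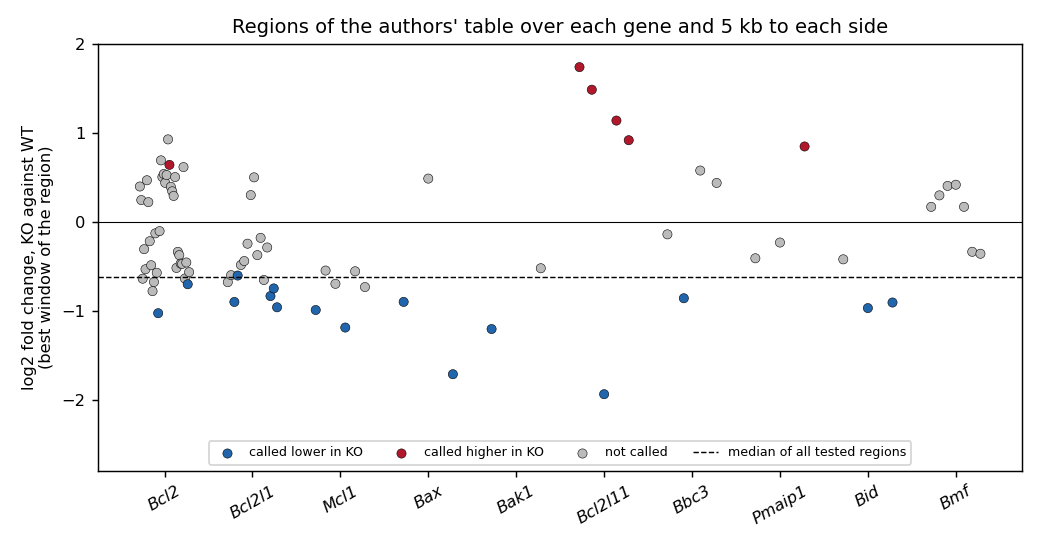
Log2 fold change (KO against WT, best window) of the 85 regions of the authors' deposited table, by gene, with called lower regions in blue, called higher in red and uncalled in grey; the dashed line is the median of all tested regions, -0.62. Bcl2l11 has 4 red points, from 0.92 to 1.74, and 1 blue point at -1.94, while Bmf has grey points only.

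Among the BH3-only genes, Bcl2l11 (BIM) had 5 tested regions and all 5 were called, where 59.0% of all tested regions were called in either direction. Around the first start, WT libraries had a pair of separate peaks, and each KO library had 1 broad peak that began 0.041 kb past it. In WT the first peak lay between 0.089 and 0.517 kb and the second between 1.531 and 1.982 kb. The KO peak ran to 1.982, 2.058 and 1.202 kb in replicates 1, 2 and 3, and so filled all or most of the gap between the WT peaks.

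The region over both starts (chr2:128125951-128128050) was covered over 722, 815 and 780 bp in WT replicates 1, 2 and 3 and over 1942, 1972 and 1162 bp in KO replicates 1, 2 and 3. Its highest summit stood at 12.54, 16.08 and 14.48 times mean coverage in WT and at 41.62, 42.36 and 40.1 times in KO. The genotypes did not overlap in either value, and every KO summit was more than double every WT summit. In the authors' deposited table this region had a log2 fold change of 1.49 (FDR = 5.693e-10), with 13 of 14 windows up and 0 down.

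The second start itself lay under a peak in WT replicate 1 and KO replicates 1 and 2 only, and the first start in no library. Of the 250 bases printed for the second start, peaks covered all 250 in KO replicates 1 and 2, 0 in KO replicate 3, 6 in WT replicate 1 and 0 in the other WT libraries. The window printed for the first start, in contrast, was covered by 0 bp in all 6 libraries, and lies between an upstream peak that only the KO libraries had and the peak downstream. That upstream region (chr2:128124901-128125650, centred at -0.7625 kb from the first start) had 0 covered bp in every WT library and 450, 404 and 701 bp in KO. In the authors' deposited table it had the highest log2 fold change of all member regions, 1.74 (FDR = 9.549e-11), with 5 of 5 windows up. Of all tested regions, 3.65% were called with a log2 fold change over 1.4. Both this region and the one over the starts also overlap the span of Acoxl, the neighbouring gene.

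Inside Bcl2l11, 1 region was lost and a pair was gained. The region centred 8.012 kb past the first start (chr2:128133601-128134500) was covered over 743 bp in each of the 3 WT libraries, with summits of 16.3, 22.68 and 19.19 times mean coverage, and over 0 bp in each KO library. The authors' deposited table gave it a log2 fold change of -1.94 (FDR = 1.701e-10), the lowest of all member regions. Further in, at 27.14 and 32.99 kb, a pair of 450 bp regions had 0 covered bp in all WT libraries. The first of them was covered over 450, 450 and 285 bp in KO, and the second over 321, 187 and 321 bp. They had log2 fold changes of 1.14 (FDR = 6.547e-05) and 0.92 (FDR = 0.005959) per the authors' deposited table. Of the 85 member regions, 4 had a peak in all KO and no WT libraries, and 3 of these lay in Bcl2l11 and 1 in Bcl2. The opposite pattern, a peak in all WT and no KO libraries, was found in 2, of which 1 lay in Bcl2l11 and 1 in Bcl2l1. Over all regions, the first pattern made up 2.6% and the second 6.67%.

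**Figure D2:**
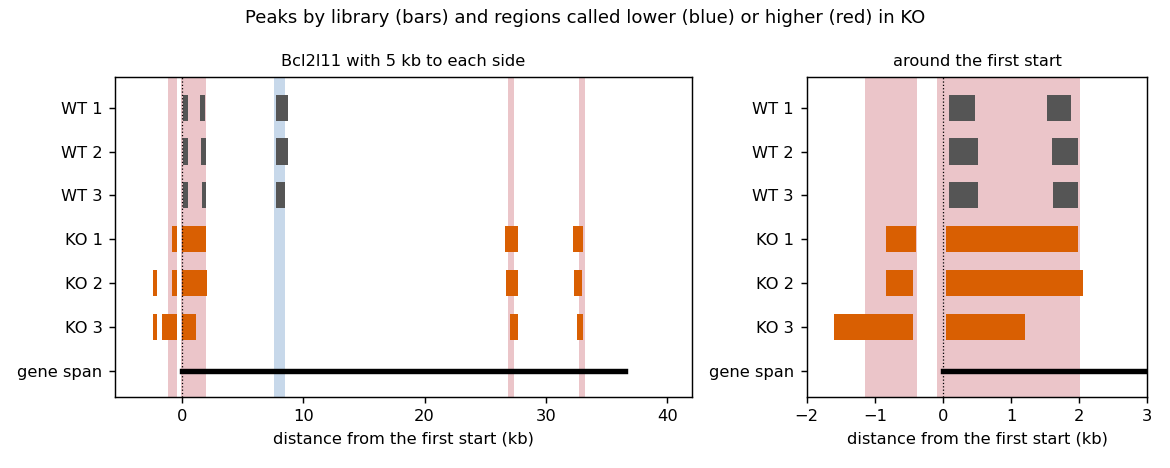
Peaks of each library (grey, WT; orange, KO) over Bcl2l11 by distance from its first start in kb, with regions called lower in KO shaded blue and called higher shaded red; the right panel enlarges the start. The KO libraries have a broad peak where the WT libraries have a pair, a peak before the start, and no peak near 8.012 kb.

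Summed over the Bcl2l11 window, peaks covered 1741, 1834 and 1523 bp in WT and 4289, 4302 and 3759 bp in KO. The KO mean was 2.42 times that of WT, with no overlap (exact permutation p = 0.1). Of all genes with a peak, 6.18% had every KO library above every WT library. The highest summit of the window was 16.3, 22.68 and 19.19 times mean coverage in WT and 41.62, 42.36 and 40.1 in KO, a ratio of 2.13 (exact p = 0.1). That ratio compares different sites. The WT values come from the region at 8.012 kb, and the KO values from the region over the starts. Over the starts, the WT summits were 12.54, 16.08 and 14.48. On the authors' library scaling the ratio was 1.736, and the genotypes again did not overlap. Peaks covered 3.27% to 3.94% of the Bcl2l11 window in WT, the smallest share of the 10 members, and 8.08% to 9.25% in KO, where the Bid window had smaller shares in KO replicates 1 and 3 (7.64% and 7.4%).

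Bbc3 (PUMA, induced by p53) differed from Bcl2l11 in having a broad and high domain in both genotypes. Peaks covered 12273, 11554 and 10559 bp of its window in WT and 10708, 11494 and 12101 bp in KO (ratio 0.998, exact p = 0.9). Its region over 3 starts (chr7:16306201-16315050) was called lower at a log2 fold change of -0.86 (FDR = 0.01063) per the authors' deposited table, with 8 of 59 windows down. The highest summit of that region was 95.77, 111.7 and 94.28 times mean coverage in WT and 107, 117.5 and 113 in KO, so the genotypes overlapped there.

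Bid, which links death receptors to mitochondria once cut by caspase 8, was the BH3-only gene with the most uniform decrease at its start. The start region (chr6:120915751-120917550) had 12 of 12 windows down and a log2 fold change of -0.91 (FDR = 6.859e-05) per the authors' deposited table. Its summit was 49.39, 67.77 and 57.58 times mean coverage in WT and 40, 43.67 and 48.96 in KO, all KO values below all WT values (ratio 0.759, exact p = 0.1). A second region 2.123 kb into the gene had a log2 fold change of -0.97 (FDR = 2.176e-04) per the authors' deposited table. Covered length overlapped between the genotypes, at 3835, 3493 and 3253 bp in WT and 2595, 3943 and 2512 bp in KO (exact p = 0.4), and KO replicate 2 was the highest of the 6.

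Pmaip1 (NOXA, which acts mainly on MCL1) had no called region over its gene span, where the authors' deposited table gave a log2 fold change of -0.23 (FDR = 0.9168). A region outside the span was called higher, at 0.85 (FDR = 0.005167, 9 of 19 windows up) per the authors' deposited table. The highest summit over the Pmaip1 window was 66.19, 70.64 and 63.3 times mean coverage in WT and 81.08, 89.52 and 84.38 in KO, a ratio of 1.27 without overlap (exact p = 0.1). On the authors' library scaling that ratio was 1.037 and the genotypes overlapped. Covered length was 5447, 5319 and 3994 bp in WT and 5900, 5684 and 4312 bp in KO (ratio 1.08, exact p = 0.5).

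Bmf (a BH3-only protein released from the cytoskeleton by loss of attachment and other stress) had 7 tested regions and none was called. Their log2 fold changes per the authors' deposited table ran from -0.36 to 0.42, with FDRs of 0.5069 and above. Covered length was 13513, 11752 and 10388 bp in WT and 12424, 12482 and 12354 bp in KO (ratio 1.05, exact p = 0.7), and the KO values all fell inside the WT range.

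Of the pore formers, Bax was lower at its start, while the called region of the Bak1 window lay outside the Bak1 span, over a neighbour. The Bax start region (chr7:45465601-45467400), which contains the Bax sequence printed above, had a log2 fold change of -1.71 (FDR = 9.64e-10) per the authors' deposited table, with 12 of 12 windows down. Its summit was 39.86, 51.4 and 38.72 times mean coverage in WT and 33.51, 34.5 and 35.42 in KO, and it was covered over 1640, 1597 and 1716 bp in WT and 1244, 1452 and 1444 bp in KO. Both values were lower in every KO library than in every WT library. A second called region, with a log2 fold change of -0.90 (FDR = 4.743e-04) per the authors' deposited table, lies outside the Bax span, over the neighbouring ferritin gene Ftl1. That region holds the highest summit of the Bax window, at 52.9, 68.05 and 64.98 times mean coverage in WT and 62.7, 67.25 and 72.92 in KO, which overlapped (exact p = 0.5).

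Bak1 has a start region (chr17:27027151-27028650) with a log2 fold change of -0.52 (FDR = 0.07971) per the authors' deposited table, and so missed the threshold. That start region also overlaps the span of Ggnbp1. Peaks lay over the Bak1 start in all 3 WT libraries and in KO replicate 1, and not in KO replicates 2 and 3. The called region of the Bak1 window, 10.55 kb past the start, lies outside the Bak1 span and overlaps that of Ggnbp1. It had a log2 fold change of -1.21 (FDR = 2.478e-07) per the authors' deposited table. Its summits were 40.11, 51.11 and 50.84 times mean coverage in WT and 31.89, 31.88 and 30.73 in KO, without overlap. Covered length of the Bak1 window was 2345, 2957 and 2784 bp in WT and 2271, 1967 and 1967 bp in KO (ratio 0.767, exact p = 0.1). For Bax it was 4262, 4219 and 4850 bp in WT and 3911, 3998 and 3970 bp in KO (ratio 0.891, exact p = 0.1), so the genotypes did not overlap for either pore former. Among all genes with a peak, 41.3% likewise had every KO library below every WT library.

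Among the survival genes, Mcl1 and Bcl2l1 had called regions in the lower direction alone, including those over their starts, while Bcl2 had calls both ways along its length. Mcl1 encodes a short-lived survival protein. Its start region (chr3:95657401-95662800) had a log2 fold change of -1.19 (FDR = 2.875e-04, 21 of 36 windows down) per the authors' deposited table. A region centred at -7.846 kb from the Mcl1 start had -0.99 (FDR = 0.001983, 23 of 27 windows down) per the authors' deposited table. All 6 Mcl1 regions had negative values there, and 4 were not called, so 33.3% were lower, below the 46.3% of all regions. Negative values were found in 29784 of all 40909 regions. The highest Mcl1 summit overlapped between the genotypes, at 65.94, 92.46 and 86.87 times mean coverage in WT and 72.97, 86.9 and 67.19 in KO (ratio 0.926, exact p = 0.8). Covered length overlapped, at 12606, 10755 and 12245 bp in WT and 8437, 10857 and 10170 bp in KO (ratio 0.828, exact p = 0.2), and KO replicate 2 reached above WT replicate 2.

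Bcl2l1 (which encodes BCL-XL) had 5 of 16 regions called lower, 31.2%, and 0 higher, a share below the 46.3% of all regions. Its 3 listed starts lie in a pair of these regions, with log2 fold changes of -0.75 (FDR = 0.007601) and -0.96 (FDR = 4.641e-04) per the authors' deposited table. A region 7.152 kb into Bcl2l1 had -0.83 (FDR = 0.001261, 14 of 17 windows down) per the authors' deposited table. A 300 bp region at 39.48 kb was covered over 262, 253 and 262 bp in WT and over 0 bp in each KO library, with -0.90 (FDR = 0.01238) per the authors' deposited table. The fifth, at 36.4 kb, had -0.60 (FDR = 0.0403) per the authors' deposited table. Covered length of Bcl2l1 was 32686, 30938 and 27173 bp in WT and 24305, 25469 and 26166 bp in KO (ratio 0.836, exact p = 0.1), so every KO library lay below every WT library, as for 41.3% of all genes with a peak. The highest Bcl2l1 summit did not separate the genotypes, at 73.21, 98.78 and 90.24 times mean coverage in WT and 87.03, 88.65 and 82.81 in KO (exact p = 0.8).

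Bcl2, the longest member, held 36 of the 85 regions, of which 2 were called lower and 1 higher. The start region (chr1:106706701-106716150) had a log2 fold change of -0.70 (FDR = 0.01639, 15 of 63 windows down) per the authors' deposited table. The summit in that region went the other way on mean coverage, at 102.8, 115.7 and 101.7 times in WT and 113.5, 144.5 and 147.4 in KO, with KO replicate 1 inside the WT range. At the Bcl2 start the best window and the summit thus gave values of opposite sign. The other lower region, 129.8 kb into the gene, had -1.03 (FDR = 3.761e-05, 23 of 52 windows down) per the authors' deposited table. The higher region, at 96.69 kb, had 0.64 (FDR = 0.01062, 6 of 30 windows up) per the authors' deposited table, and its summit was 92.76, 87.29 and 67.68 times mean coverage in WT and 114.6, 116.6 and 120.8 in KO.

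On the authors' library scaling, Bcl2 regions of the same sign lay next to each other, though most were not called. From 70.06 to 119.4 kb all 11 regions had positive log2 fold changes, 0.29 to 0.93, per the authors' deposited table, and 1 of these was called. The next 8, from 122.5 to 157.5 kb, were all negative, -1.03 to -0.10, per the authors' deposited table, and 1 was called. On a scaling by mean coverage, 0.30 higher, those nearest 0 would be positive, so this second run holds on the authors' scaling only. Covered length of Bcl2 was 94354, 83513 and 84284 bp in WT and 82586, 98976 and 92254 bp in KO (ratio 1.04, exact p = 0.7), and the genotypes overlapped widely.

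**Figure D3:**
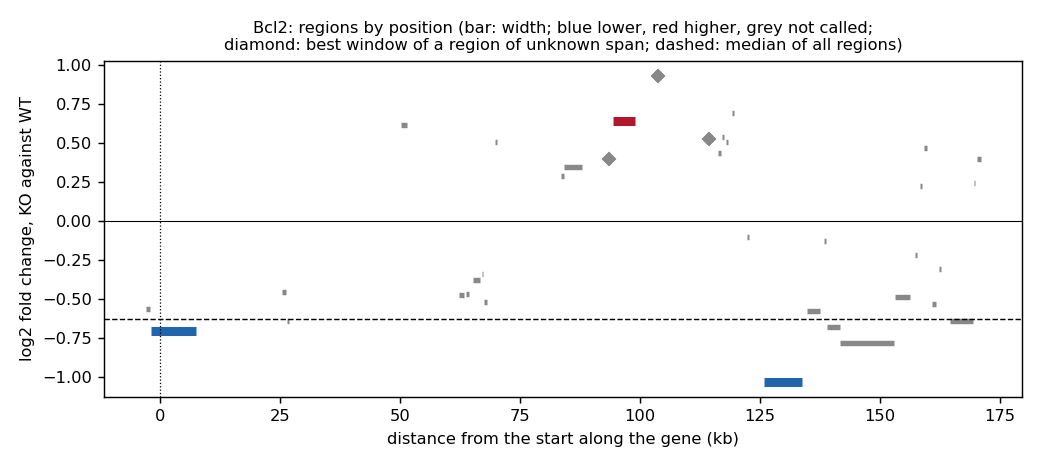
Log2 fold change (KO against WT) of the 36 Bcl2 regions of the authors' deposited table by distance from the start in kb; bars show region width, blue is called lower, red called higher, grey uncalled, and diamonds are 3 regions placed by their best window. The called lower regions lie at the start and at 129.8 kb and the called higher region at 96.69 kb, within a stretch of positive values.

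Over the 10 windows, every KO library lay below every WT library in covered length for 3 members, Bcl2l1, Bax and Bak1, and above for 1, Bcl2l11. Among all genes with a peak, 41.3% had all KO values below and 6.18% had all KO values above. The summed covered length of the members was 183062, 166334 and 161053 bp in WT and 157426, 179172 and 169565 bp in KO, a ratio of 0.992, beside 0.827 for the genome. Bcl2 makes up much of that sum, and without it the ratio was 0.936. Leaving out KO replicate 2 added Mcl1 and Bid to the members that were lower, 5 in all, and leaving out WT replicate 1 or KO replicate 3 gave 2 members that were higher, Bcl2l11 with Bmf or Pmaip1.

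**Figure D4:**
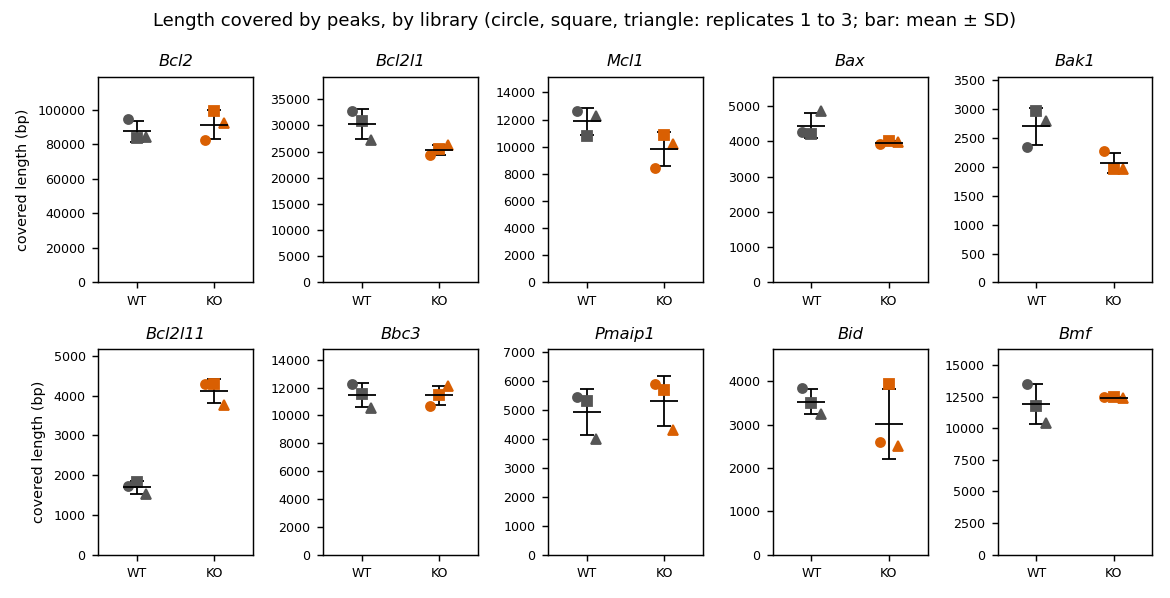
Length covered by peaks (bp, linear axis from 0) in each library over the window of each member, with replicates 1 to 3 as circle, square and triangle and bars as the mean ± SD of 3 libraries. The KO points lie wholly above WT for Bcl2l11 and wholly below for Bcl2l1, Bax and Bak1.

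The highest summit, in multiples of mean coverage, was lower in every KO library for 1 member, Bid, and higher for 3, Bcl2 (ratio 1.25), Bcl2l11 and Pmaip1. Over all genes with a peak in every library, 17.2% were lower and 20.5% higher in this way. The highest summit can lie at different sites in different libraries, as it did for Bcl2, Bcl2l1, Bak1, Bcl2l11 and Bmf. In the Bcl2 start region alone the genotypes overlapped, with KO replicate 1 at 113.5 and WT replicate 2 at 115.7. On the authors' library scaling 3 members were lower (Bcl2l1, Bak1 and Bid) and Bcl2l11 alone was higher, where 51.0% and 5.03% of all genes were. Only Bcl2l11 and Bid kept their direction and separation on both scalings, and Bcl2 and Pmaip1 overlapped on the authors' scaling, at ratios of 1.019 and 1.037. On that scaling, leaving out WT replicate 1, WT replicate 3 or KO replicate 2 gave 5 lower members, and leaving out KO replicate 1 added Bcl2 to the higher ones, 2 in all. On the mean-coverage scaling, leaving out WT replicate 1 gave 3 lower members (Bcl2l1, Bak1 and Bid) and leaving out KO replicate 2 gave 2 (Bak1 and Bid).

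**Figure D5:**
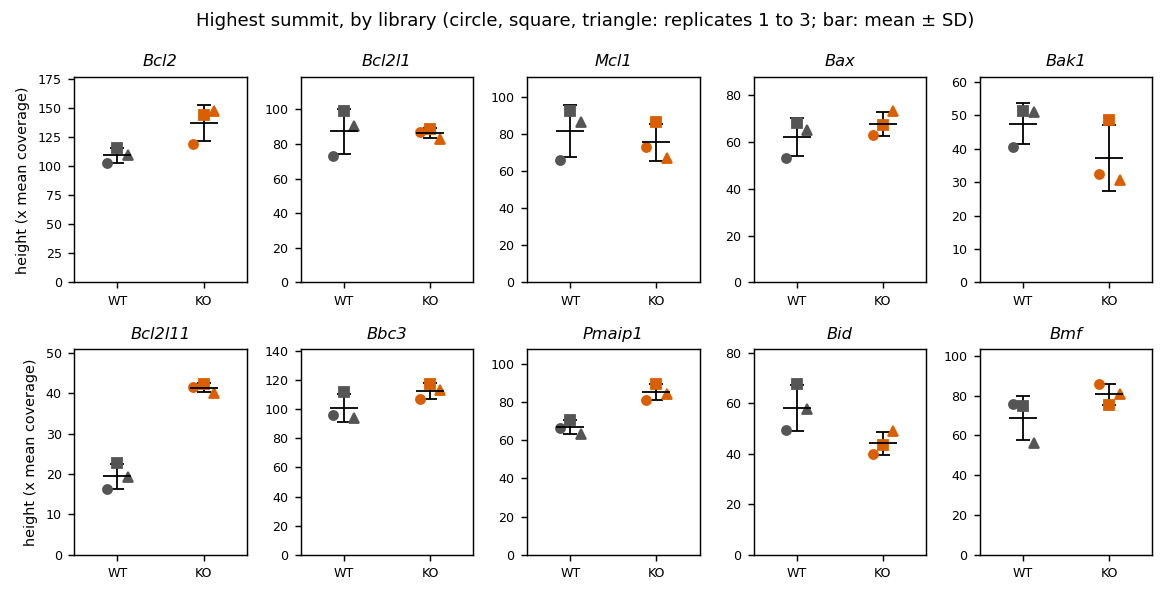
Highest summit over the window of each member, in multiples of the library's mean coverage (linear axis from 0), with replicates 1 to 3 as circle, square and triangle and bars as the mean ± SD of 3 libraries. Bcl2l11 sits at 16.3 to 22.68 in WT and 40.1 to 42.36 in KO, at different sites, and Bid is the member whose KO points all lie below WT.

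Other genes of the death pathway were read by the widest region within 2 kb of either gene end. Of 56 with such a region, 34 were lower and 4 higher in KO per the authors' deposited table, with a median log2 fold change of -0.79, against 60.2% lower, 5.09% higher and a median of -0.77 over 11627 genes. By the same measure 5 of the 10 members were lower and 1, Bcl2l11, was higher, with a median of -0.72.

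Of the 11 other BCL2 family genes with a region, 9 were lower and 0 higher per the authors' deposited table. The survival genes Bcl2a1d (-1.30, FDR = 9.668e-10) and Bcl2l2 (-1.40, FDR = 9.623e-05) were lower with Bcl2l15 (-1.42) and Bcl2l12 (-0.80), as log2 fold changes per the authors' deposited table. Bcl2a1d has near-identical copies, so reads may be split among them. Of 12 apoptosome and caspase genes, 9 were lower and 1 higher per the authors' deposited table. The higher one was Casp6, an effector caspase (log2 fold change 1.44, FDR = 1.818e-08), while the mitochondrial nuclease Endog (-1.80, FDR = 3.855e-05) was lower per the authors' deposited table.

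Of 5 caspase inhibitor genes, 2 were lower and 1 higher per the authors' deposited table. Birc3 (cIAP2) had a log2 fold change of 0.86 (FDR = 2.744e-04), Cflar (FLIP, which blocks caspase 8) -1.10 (FDR = 3.125e-04) and Birc5 (survivin) -0.86 per the authors' deposited table. Taking the region of lowest FDR instead, 1 was lower and 2 were higher per the authors' deposited table. Of 9 death receptor genes, 4 were lower per the authors' deposited table: Tnfrsf10b (-1.002), Ripk3 (-0.92), Tnfrsf1a (-0.76) and Tradd (-0.72). Of 19 genes that regulate the members, 10 were lower and 2 higher per the authors' deposited table. The 2 higher, named here after their values were seen, were Il2ra (0.66), a cytokine receptor chain, and Mdm2 (0.82), which restrains p53. The kinase genes Gsk3b (-1.61, FDR = 2.748e-07) and Akt1 (-1.19, FDR = 3.244e-06), which act on MCL1 and on FOXO factors and BAD respectively, were lower per the authors' deposited table. Stat5a and Stat5b, which transmit survival signals of cytokines, share 1 region and 1 value, -1.58 (FDR = 1.449e-06), per the authors' deposited table.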

How the data were processed

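Members and gene lists were chosen with earlier results of these data known. Per the submitters' processing notes, MACS2 2.2.6, Bowtie2 2.3.5.1, cutadapt 2.8, bcl2fastq 2.20.0.422 and deepTools 3.3.2 were used with build GRCm38 (mm10). For the differential table's program and scaling, and for the control of the peak lists, nothing is given in the sources used here. The authors called peaks per library, and the deposited lists give a score, a fold enrichment (linear ratio), and the -log10 of a p-value and a q-value, per peak. The authors' deposited table gives a log2 fold change, a p-value and an FDR per region and no value per library, so it was not refitted.

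The paired-end peak lists were used. Covered length is the bp under peaks. Peak height was solved from the deposited fold, (height + 1) / (background + 1), and the Poisson p-value, and divided by mean coverage, taken as the lowest background that 50 or more peaks have. This gave whole fragments, in 99.49% to 100% of peaks, with -log10 p matched to 0.01, and 99.63% or more on simulated data (13046 peaks). Regions absent from the significant list were rebuilt from 150 bp windows, which returned 98.8% of listed spans. Of the 2730 regions with peaks in WT alone, 99.9% had negative deposited fold changes, which sets the direction. In 1291 regions deposited fold changes followed height ratios (r = 0.993 across regions, which are not independent replicates), with a shift of 0.30. Gene spans, without exons, are from RefSeq GRCm38.p6. Library values were tested by exact permutation (two-sided) (numpy 2.4.6, scipy 1.17.1, pandas 2.3.3). Depth is known only as mean coverage, and no counting interval was computed.

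The text names all 10 members, genes overlapping their regions, and up to 4 called genes per pathway list by lowest FDR of the widest gene-end region. Some genes that this rule takes are not reported here. Alternatives were other FDR, fold, flank and scaling choices, single-read or stronger peaks, leaving out each library and a replicate block. The scaling of summits, the values without Bcl2 and all settings for members that were higher were added after seeing the data.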

Additional observations from a re-analysis of the deposited data

How the results depend on the processing

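In the authors' deposited table, the 16 lower and 6 higher member regions became 5 and 3 when the log2 fold change had to reach 1 in size, and 28 and 10 with 20 kb to each side, where more regions are counted. At an FDR under 0.01 they were 12 and 5, and the calls lost were 2 in Bcl2, 2 in Bcl2l1 and 1 in Bbc3. No library could be left out of that table. The 3 members lower in covered length became 3 to 5 when each library was left out, and the 1 higher became 1 to 2. The summed covered length ratio of 0.992 became 1.199 as a share of each library's whole covered length, and lay between 0.961 and 1.031 without each library. The 1 member lower by summit became 1 to 3 without each library, and 3 on the authors' scaling, where the 3 higher became 1. The cause of these changes was not tested. Whether replicate numbers pair the libraries could not be decided from 3 libraries per genotype. Deviations of same-numbered libraries over 11801 genes correlated at 0.0288 to 0.0345, each small but the highest for its number. With the replicate block, read as 3 within-number differences whose exact p cannot go below 0.25, 3 members were lower in covered length, 2 by summit, and the summed ratio was 0.997. The log2 fold changes of called member regions and the covered length ratios of single members were also compared under alternative settings. Of 144 such comparisons, each of 1 value under 1 setting, 120 stayed the same and 19 moved. In 5, all at an FDR under 0.01, the region was no longer called, and no called region changed sign. Covered length ratios of Bbc3, Bmf and Pmaip1, whose genotypes overlapped, crossed 1 in 10 cases (Bbc3 up to 1.073, Bmf 0.9832, Pmaip1 down to 0.9843). The pathway count of 38 (34 lower, 4 higher) was 42 by regions of lowest FDR (35 lower, 7 higher). Mean coverage of 1.85 to 3.99 fragments limits how small a change in height can be seen.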
